A study of Rattus norvegicus with 12 samples.

Results

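Kinesins are motor proteins that use ATP to move along, or to take apart, microtubules. One branch of the family works on the spindle of dividing cells, where it slides microtubules, moves chromosomes and builds the midzone that cytokinesis needs. Another branch carries vesicles, organelles and ciliary cargo through cells that need not divide, and some members shorten microtubules or act in hedgehog signalling at the cilium. The genes described here were all rows of the expression table whose symbol begins with Kif followed by a digit. There were 40 of them among 22601 genes, sorted by textbook function into 12 mitotic kinesins, 13 transport kinesins and 15 others. The rule used no measured value. It also took in Kif1bp, which encodes KIF1 binding protein and is no motor, and it missed kinesins with other names such as Kifc1 and Cenpe, which are given further on as partners.

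RNA was sequenced from tissue that filled a 3 mm defect in the distal femur of 8-week-old Sprague Dawley rats, taken 2 weeks after surgery. In the control group the defect held no scaffold, and in the other groups it held a 3D-printed scaffold of GelMA hydrogel, of polycaprolactone (PCL) or of β-tricalcium phosphate (β-TCP). Each of the 4 groups had 3 libraries. Per the methods of the study, newly formed tissue was ground in the control group. In the scaffold groups it was the niche, which the study describes as scaffold, cells and regenerated tissue. The material thus differed between control and scaffold groups. All of it was bulk, so fewer cells of a type and less RNA per cell cannot be told apart in any value below. The bone marker Col1a1 was high in all 12 libraries, at 3635 to 11860 FPKM (fragments scaled to transcript length and to the size of the library, which can be compared between genes). The lowest value was in hydrogel 3. Its 5 bone markers summed to 4541 FPKM, against 11063 and 10720 in hydrogel 1 and 2. Its 6 skeletal muscle markers summed to 234 FPKM, against 26.7 and 15.5 there. PCL 1 and PCL 3 were also high in muscle markers, at 146 and 121 FPKM. The part of this make-up in the kinesin values was not tested.

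The libraries held 15035764 to 17357706 fragments, as recovered from the steps of the FPKM values. Libraries labelled as replicates differed widely. Control 3 stood apart from the other controls: chi-square per gene was 208 against control 1 and 301 against control 2, beside 38.5 between those 2. Its 6 cartilage markers summed to 11744 FPKM, against 1738 and 1894 in the other controls and at most 700.2 in any scaffold library. β-TCP 2 and β-TCP 3 were the closest pair, with a chi-square per gene of 2.14 against 30.4 to 301 in all other pairs within a group. That is still above sampling noise, so they were counted as 2 libraries. It does not show that they came from different animals, and whether they came from 1 animal or pool is not stated. If they did, the β-TCP group had fewer independent samples than its 3 libraries. Where a count of kinesin calls turned on these libraries, its value without them is given beside it or in the last section. For partner and marker genes such values are not given.

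Of the 40 genes, 29 reached at least 1 FPKM in at least 3 libraries and were tested: 11 mitotic, 11 transport and 7 others. Kif22, a chromosome-binding motor that pushes chromosome arms toward the spindle equator, had the highest mean level over the 12 libraries (44.5 ± 24.9 FPKM, SD, n = 12). Kif5b, the widely expressed heavy chain of conventional kinesin, followed at 35.4 ± 2.75 FPKM, and Kif1c, a vesicle motor, at 27.7 ± 4.94 FPKM. Next came the mitotic motors Kif11 (26.6 ± 15.9 FPKM), Kif20a (24.7 ± 13.3 FPKM) and Kif23 (20.1 ± 11.4 FPKM). The SD of each of these mitotic genes covered the means of its neighbours in the order, whereas Kif5b and Kif1c lay apart by more than the SD of either. Kif26a had the lowest mean among the genes tested, at 1.02 ± 0.38 FPKM.

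Promoter stretches of mitotic and transport genes are shown here because the report turns on the contrast between those classes; whether their motifs differ was not tested. RefSeq promoter windows of the GRCr8 assembly, 250 bases before to 50 after each start, were matched for 31 of the 40 genes. The stretches below are the last 100 bases before the start of 4 mitotic genes and of the 2 transport genes with the highest levels. The mitotic genes shown were not chosen by level: Kif20a, higher than Kif4a, had a window and is not shown. They do not stand for the class, whose counts follow the stretches. Capitals mark CCAAT, the core of the box bound by NF-Y, and TTTGAA, a core of the cell cycle homology region, each read on either strand (ATTGG and TTCAAA on the other).
Kif11, chr1:244536767-244536866, plus strand: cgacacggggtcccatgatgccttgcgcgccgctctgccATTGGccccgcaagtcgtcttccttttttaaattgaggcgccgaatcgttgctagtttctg
Kif22, chr1:191080879-191080978, minus strand: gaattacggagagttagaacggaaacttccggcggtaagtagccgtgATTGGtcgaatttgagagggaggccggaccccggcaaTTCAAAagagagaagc
Kif23, chr8:71320585-71320684, minus strand: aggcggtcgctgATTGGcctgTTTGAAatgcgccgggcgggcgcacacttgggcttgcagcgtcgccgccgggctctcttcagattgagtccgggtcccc
Kif4a, chrX:69761783-69761882, plus strand: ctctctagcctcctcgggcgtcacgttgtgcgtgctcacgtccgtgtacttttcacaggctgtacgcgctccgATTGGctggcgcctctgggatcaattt
Kif5b, chr17:56185286-56185385, plus strand: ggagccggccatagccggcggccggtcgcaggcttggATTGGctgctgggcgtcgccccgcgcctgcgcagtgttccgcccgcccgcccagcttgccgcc
Kif1c, chr10:55912993-55913092, plus strand: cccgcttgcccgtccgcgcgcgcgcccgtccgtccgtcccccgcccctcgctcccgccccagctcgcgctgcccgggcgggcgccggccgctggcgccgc

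Kif23 held both motifs close together, at positions -88 and -79 counted from the start site (the first base before it is -1), and Kif22 held them at -53 and -16. Kif4a also had a TTTGAA that begins at -3 and runs past the stretch shown. Class counts here cover only the kinesins tested that had a window. Over the whole 300 base windows, TTTGAA was found in 5 of the 10 such mitotic genes (Kif15, Kif20b, Kif22, Kif23 and Kif4a). It was found in 0 of 9 such transport genes, in 12% of the 10165 windows of genes tested and in 18.1% of all 27457 windows. CCAAT was found in 6 of the 10 mitotic and 3 of the 9 transport windows, against 38% of the windows of genes tested and 37.7% of all. GGGCGG, the core of a GC box (CCGCCC on the other strand), was in 7 of 10 mitotic and 8 of 9 transport windows, against 61.5% of the windows of genes tested and 34.9% of all. TTCGAA, another form of the homology region and its own reverse complement, was in 0 of 10 and 0 of 9, against 2.15% of the windows of genes tested and 1.77% of all. The motifs do not overlap one another in the stretches shown. A match in such a window is a description of its letters only.

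Mitotic kinesins moved as a block across the 12 libraries. Kif11, the kinesin-5 that pushes spindle poles apart, measured 20.9, 41.7 and 5.17 FPKM in controls 1 to 3 and 32.9, 28.6 and 59.8 FPKM in the hydrogel libraries. It measured 28.2, 25.4 and 40.6 FPKM with PCL and 17.7, 8.58 and 9.09 FPKM with β-TCP. The highest library was hydrogel 3 and the lowest control 3, and the controls alone covered most of the range. All β-TCP values lay below all hydrogel and all PCL values.

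Kif20a, a kinesin-6 of the central spindle, was at 18.9, 35.2 and 6.80 FPKM in the controls, 32.4, 24.4 and 47.5 with hydrogel, 27.9, 26.1 and 42.9 with PCL, and 15.8, 9.22 and 9.40 with β-TCP. Kif23, the motor subunit of centralspindlin, was at 14.9, 30.4 and 5.92 FPKM in the controls, 25.7, 20.2 and 42.5 with hydrogel, 20.7, 20.1 and 33.5 with PCL, and 12.7, 7.06 and 7.67 with β-TCP. Kif4a, a chromokinesin that sets the length of midzone microtubules, was at 10.4, 18.0 and 3.02 FPKM in the controls, 18.5, 13 and 26.1 with hydrogel, 14, 15.3 and 25.0 with PCL, and 9.37, 4.58 and 4.18 with β-TCP. For each of these genes β-TCP did not overlap hydrogel or PCL, while the controls overlapped every group.

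The other mitotic kinesins ordered the libraries in nearly the same way. Kif22 was at 32.0, 63.8 and 9.71 FPKM in the controls, 58.6, 45.0 and 85.7 with hydrogel, 46.7, 47.3 and 82.4 with PCL, and 28.6, 18.0 and 16.9 with β-TCP. Kif18b, a kinesin-8 that trims astral microtubules, was at 13.3, 24.4 and 2.12 FPKM in the controls, 23.8, 16.8 and 34.2 with hydrogel, 17.5, 17.7 and 31.0 with PCL, and 12.8, 5.11 and 5.33 with β-TCP. It had the largest ratio of highest to lowest library among the kinesins tested, 16.1.

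Kif2c, the depolymerase that corrects wrong attachments at centromeres, was at 10.8, 20.6 and 2.24 FPKM in the controls, 15.6, 14.4 and 29.0 with hydrogel, 14.2, 11.6 and 19.5 with PCL, and 7.07, 3.91 and 4.20 with β-TCP. Kif15, a kinesin-12 that supports the bipolar spindle beside Kif11, was at 9.73, 20.2 and 3.23 FPKM in the controls, 18.5, 15.2 and 29.7 with hydrogel, 13.9, 11.7 and 18.9 with PCL, and 9.96, 4.85 and 4.16 with β-TCP. Both again had hydrogel 3 on top, and each had PCL 3 above the other PCL libraries.

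Kif20b, a kinesin-6 of late cytokinesis, was at 6.28, 12.8 and 2.48 FPKM in the controls, 11.5, 10.8 and 20.5 with hydrogel, 9.48, 10.001 and 14.2 with PCL, and 6.83, 3.46 and 3.87 with β-TCP. Kif18a, which damps chromosome oscillation at the metaphase plate, was at 5.94, 11.3 and 1.55 FPKM in the controls, 9.07, 7.65 and 14.5 with hydrogel, 7.66, 8.81 and 13.4 with PCL, and 5.57, 3.45 and 2.98 with β-TCP. Kif14, a cytokinesis motor that binds Prc1, was at 4.02, 8.56 and 0.899 FPKM in the controls, 6.70, 5.11 and 10.6 with hydrogel, 5.44, 6.51 and 8.65 with PCL, and 3.08, 1.92 and 1.44 with β-TCP. In each the β-TCP libraries lay below every hydrogel and PCL library.

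Hydrogel 3 was the highest and control 3 the lowest library for 11 of the 11 mitotic genes tested. The ratio of highest to lowest library was 6.98 to 16.1 among them and 1.30 to 5.65 among the transport genes. Control 2 alone exceeded control 3 by 5.13 to 11.5 times in the mitotic class. Kif4b, an intronless copy of Kif4a, was counted in 19 fragments over all 12 libraries. How reads shared by such copies were split is not given in the sources used here, so the pair is uncertain at that level.

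**Figure D1:**
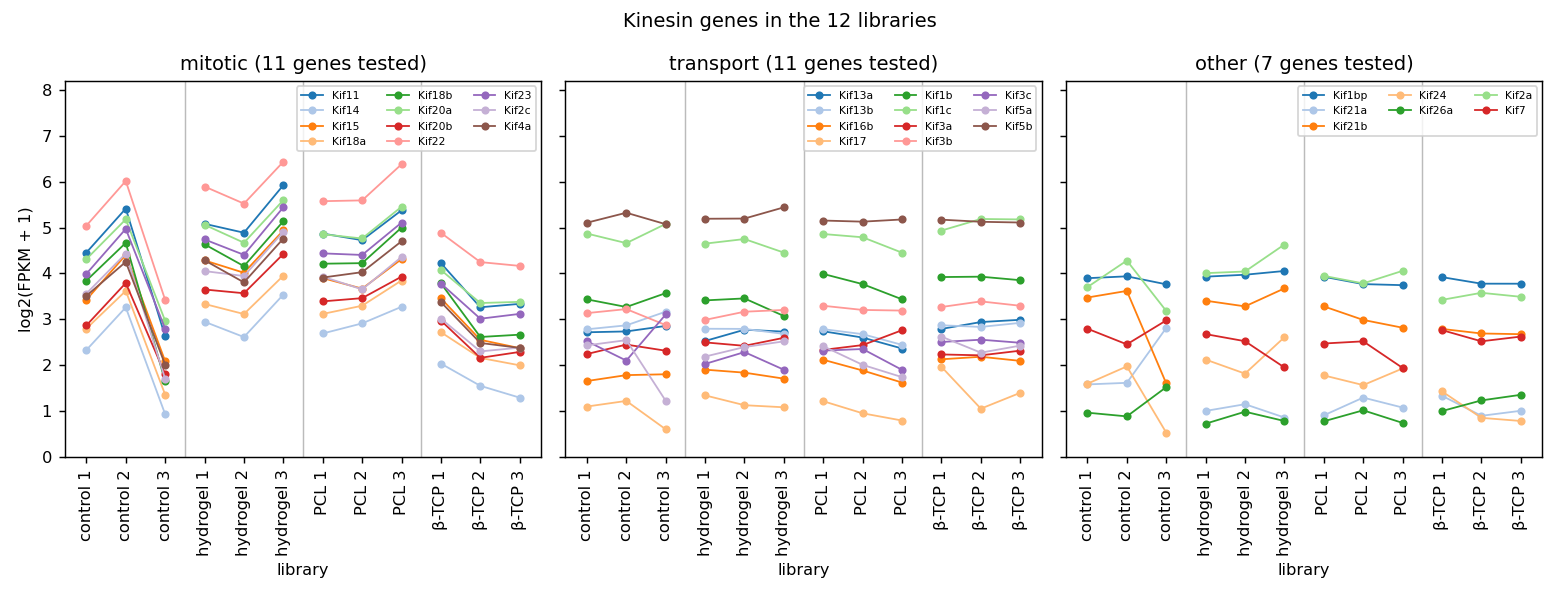
Level of each kinesin gene tested, as log2(FPKM + 1), in the 12 libraries, with 1 panel for each class; thin lines only follow a gene within a group, since libraries of a group have no order. The 11 mitotic genes share 1 profile, highest in hydrogel 3 and lowest in control 3, while most transport genes are near level.

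Summed over the class, mitotic kinesins reached 285 ± 103 FPKM with hydrogel, 245 ± 73.2 with PCL, 159 ± 122 in the control group and 89.6 ± 34.5 with β-TCP (SD, n = 3 each). The β-TCP libraries were at 130 (β-TCP 1), 70.1 and 69.3 FPKM, below the 201 FPKM that was the lowest of the hydrogel and of the PCL libraries. The controls ran from 43.1 to 287 FPKM, from below every other library to above the highest β-TCP and the lowest hydrogel and PCL libraries. Transport kinesins summed to 110 ± 2.89 FPKM in the control group, 106 ± 2.56 with hydrogel, 107 ± 9.55 with PCL and 123 ± 2.24 with β-TCP. Their β-TCP libraries, at 120 to 124 FPKM, lay above the 116 FPKM of the highest other library. That order did not hold under another scaling. With globin genes left out of the total, control 3, at 114 FPKM, had a scaling factor of 0.918. The β-TCP libraries had factors of 1.02 to 1.05. Divided by these factors, the control 3 sum lay above the β-TCP sums. The ratio of mitotic to transport kinesins was 2.70 ± 0.974 with hydrogel, 2.35 ± 0.921 with PCL, 1.46 ± 1.12 in the control group and 0.734 ± 0.298 with β-TCP.

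**Figure D2:**
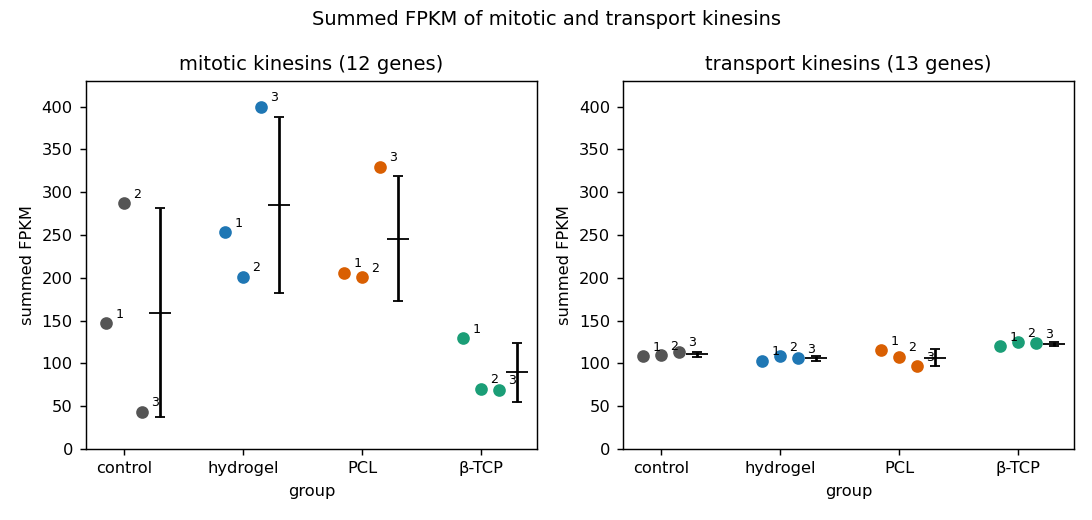
Summed FPKM of the 12 mitotic and the 13 transport kinesins in each library, with libraries numbered as in the labels and bars for the group mean ± SD (n = 3). Mitotic sums run from 43.1 to 400.1 FPKM and transport sums from 96.5 to 124 FPKM on the same axis.

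Of the comparisons between groups, β-TCP against hydrogel showed the largest mitotic difference, with β-TCP lower. The median log2 fold change of the 11 mitotic genes was -1.54, on the log2(FPKM + 1) scale used for all fold changes here, against -0.06 over all 12633 genes tested. Kif2c had the largest change (-1.74 ± 0.57, SE; n = 3 against 3), followed by Kif11 (-1.69 ± 0.59), and Kif18a the smallest (-1.18 ± 0.48). As ratios of group means, hydrogel exceeded β-TCP by 2.60 to 3.88 times. With limma and adjustment over all genes, 0 of the 29 kinesins tested were called at an adjusted p under 0.05, where 6.13% of all genes were. The mitotic genes had adjusted p-values of 0.0724 to 0.122. At an unadjusted p under 0.05, 16 kinesins passed, against 34.4% of all genes, and limma-voom on recovered fragments called 1 at an adjusted p.

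The study's methods called a gene changed when its raw p was under 0.05 and it differed by more than 2 times, up or down. By it 12 kinesins were lower in β-TCP than in hydrogel, all 11 mitotic genes tested and Kif24, where 5.02% of all genes were lower. The β-TCP and hydrogel libraries did not overlap for any of the 11 mitotic genes, with β-TCP lower, as for 34.5% of all genes. The call at an adjusted p depended on the libraries that set the spread. It rose to 16 kinesins without control 3, to 13 without control 2, to 18 in a fit of only these 2 groups, and to 1 without PCL 3. Without hydrogel 3 the fold threshold called 6.

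PCL against β-TCP gave the reverse picture, though it shares the β-TCP libraries with the comparison above and is not independent of it. The median log2 fold change of mitotic kinesins was 1.38, against -0.04 over all genes, with Kif4a highest (1.47 ± 0.51, SE) and Kif20b lowest (1.12 ± 0.44). PCL exceeded β-TCP by 2.34 to 3.20 times in group means. The fold threshold called 11 kinesins higher with PCL, exactly the 11 mitotic genes tested, where 3.34% of all genes were higher, and 0 lower, where 1.14% were. At an adjusted p, limma called 0 kinesins against 0.657% of all genes, limma-voom called 0, and 13 passed an unadjusted p under 0.05 against 22.4%. The libraries did not overlap for any of the 11, as for 21.7% of all genes. This count rested on few libraries: it fell to 0 without PCL 3, to 1 without β-TCP 3 or with β-TCP 2 and 3 averaged, to 3 without β-TCP 2, and to 7 without PCL 1, PCL 2 or hydrogel 1. At an adjusted p, 10 kinesins passed without control 3 and 13 in a fit of only these 2 groups.

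Against the control group, mitotic kinesins could not be separated from the spread of the controls. In hydrogel against control the median log2 fold change was 1.06, with all 11 genes above 0, against 0.14 over all genes. Kif20b was the only gene past the fold threshold in that direction (1.06 ± 0.44, SE), where 0.807% of all genes passed. Its adjusted p was 0.312, and 0 kinesins passed an adjusted p, as 0.00792% of all genes did. At an unadjusted p under 0.05 limma gave 3 of the 29, against 15% of all genes, and limma-voom gave 0 at an adjusted p. The libraries overlapped for all mitotic and transport genes (over all genes, 9.15% did not with hydrogel higher and 5.98% with hydrogel lower). Without control 2 the fold threshold called 13 kinesins, and without control 3 or hydrogel 3 it called 0. The mitotic median was 0.38 without control 3.

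PCL against control had a mitotic median of 0.83 and called 0 kinesins by either threshold (2.37% of all genes were higher and 1.27% lower at the fold threshold, 0.277% passed an adjusted p). At an unadjusted p under 0.05 limma gave 2 of the 29, against 18.4% of all genes, and limma-voom gave 0 at an adjusted p. All mitotic and transport genes overlapped (over all genes, 10.3% did not with PCL higher and 7.84% with PCL lower). Without control 2 the fold threshold called 12, and without control 3 the mitotic median was 0.21. β-TCP against control had a mitotic median of -0.51, with all 11 genes below 0, and again called 0 by either threshold (2.49% higher, 1.03% lower and 4.78% at an adjusted p over all genes). At an unadjusted p under 0.05 limma gave 3 of the 29, against 18% of all genes, and limma-voom gave 0 at an adjusted p. Without control 3, 9 kinesins were lower with β-TCP at the fold threshold and 2 at an adjusted p. The mitotic median of that comparison was 0.04 without control 2 and -1.14 without control 3, so its sign rested on the controls kept.

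PCL and hydrogel were the closest scaffolds for this family. The mitotic median was -0.17, ratios of group means (PCL over hydrogel) ran from 0.703 to 0.957, and 0 kinesins passed either threshold (0.546% of all genes higher, 0.222% lower, 0.103% at an adjusted p). At an unadjusted p under 0.05 limma gave 1 of the 29, against 8.23% of all genes, and limma-voom gave 0 at an adjusted p. The lack of a call does not show that the 2 groups were alike: for Kif11, at -0.31, the 95% interval of the log2 fold change ran from -1.62 to 1.0, which leaves room for differences of 2 times either way.

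**Figure D3:**
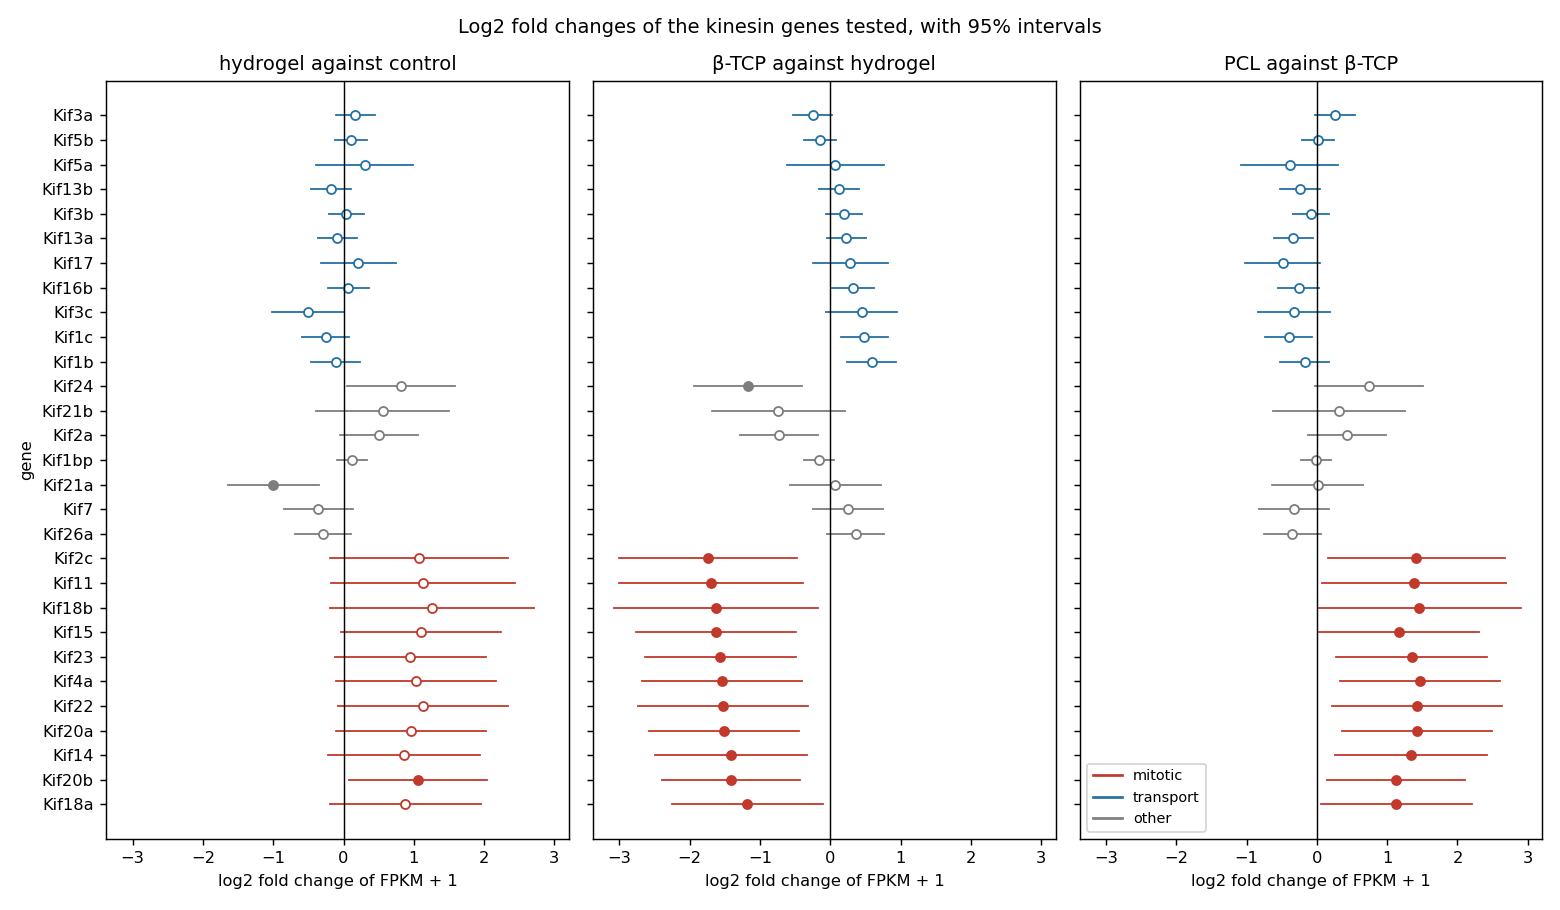
Log2 fold change of FPKM + 1 with its 95% interval for the 29 kinesin genes tested, in 3 of the comparisons; filled points passed the fold threshold and open points did not. Mitotic genes lie at -1.74 to -1.18 in β-TCP against hydrogel and at 1.12 to 1.47 in PCL against β-TCP, while transport genes lie between -0.49 and 0.59 in both.

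Markers of dividing cells moved with the mitotic kinesins, and those of red cells and white cells did so in part. The 6 markers of proliferating cells summed to 182 to 312 FPKM with β-TCP, 481 to 901 with hydrogel, 497 to 825 with PCL and 118 to 631 in the control group. All 6 passed the fold threshold in β-TCP against hydrogel (lower, as 5.02% of all genes were) and in PCL against β-TCP (higher, as 3.34% were). In hydrogel against control 3 were higher, where 0.807% of all genes were. In PCL against control 1 was higher, where 2.37% were, and in β-TCP against control 0 passed. Globin genes held 3.01 to 6.60% of all FPKM with β-TCP, 8.74 to 16.5% with hydrogel, 9.53 to 23.3% with PCL and 0.953 to 13.1% in the controls, with control 3 at the bottom. The 12 erythroid markers summed to 7217 to 15856 FPKM with β-TCP, 21775 to 45086 with hydrogel, 23932 to 74408 with PCL and 2003 to 31487 in the controls. In PCL against hydrogel the 11 of them tested were all higher (median log2 fold change 0.46), while the mitotic median was -0.17. Gata1 was listed under 1 FPKM in all libraries, while Klf1, another defining erythroid factor, was at 0.943 FPKM in control 3 and 212.9 FPKM in PCL 3. Neutrophil markers (6 genes) summed to 38.0 FPKM in control 3 and 802 to 5237 in the other libraries, and B cell markers (5 genes) to 8.42 FPKM in control 3 and 37.6 to 514 elsewhere. B cell markers did not follow the mitotic kinesins with PCL: they summed to 246.9, 66.8 and 98.8 FPKM there, against 271 to 514 with hydrogel, and their median log2 fold change in PCL against hydrogel was -1.46. That of the neutrophil markers was -1.42, but the list was split, with 4 genes lower and 2 higher with PCL. Their sum was 3838 ± 1885 FPKM with PCL and 3075 ± 1092 with hydrogel (SD, n = 3 each). The part of any of these cell types in the kinesin differences was not tested.

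Across the 12 libraries the mitotic kinesins followed Mki67, a nuclear protein of cycling cells. Correlations were computed for 12 relations (6 kinesins, each against Mki67 and against the globin share), on log2(FPKM + 1), with a two-sided permutation test and Benjamini-Hochberg adjustment over the 12. The permutations moved values freely over all 12 libraries. The p-values of all these relations therefore do not allow for the groups, and they count β-TCP 2 and 3 as separate points. Kif4a had Pearson's r = 0.985 and Spearman's rho = 0.986 with Mki67 (permutation p = 2e-05 for both, the smallest the permutations can give; adjusted p = 4.8e-05 and 6e-05). Leaving out control 3 and β-TCP 2, the libraries farthest from the median of Mki67, gave r = 0.995, and deviations from the group means gave r = 0.984. For Kif11, Kif20a and Kif23 the r with Mki67 was 0.974, 0.978 and 0.962. With the globin share Kif4a had r = 0.927 and rho = 0.986 (permutation p = 2e-05 for both; adjusted p = 4.8e-05 and 6e-05), r = 0.939 without control 3 and PCL 3, and r = 0.862 within groups. The points share their libraries and total, so these relations say that the genes rank the libraries alike.

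Transport kinesins were far more even. Kif5b was at 33.5, 39.1 and 32.7 FPKM in the controls, 35.6, 35.7 and 42.5 with hydrogel, 34.6, 34.0 and 35.2 with PCL, and 35.1, 33.9 and 33.6 with β-TCP. Its highest library exceeded its lowest by 1.30 times. In none of the 6 comparisons did it pass an unadjusted p under 0.05.

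Kif1c, a kinesin-3 of vesicles and podosomes, was at 28.2, 24.3 and 32.8 FPKM in the controls, 24.1, 25.9 and 20.9 with hydrogel, 28.0, 26.6 and 20.9 with PCL, and 29.6, 35.5 and 35.2 with β-TCP. Kif1b, a kinesin-3 that carries mitochondria and synaptic vesicle precursors, was at 9.80, 8.62 and 10.9 FPKM in the controls, 9.63, 9.95 and 7.40 with hydrogel, 14.9, 12.6 and 9.81 with PCL, and 14.1, 14.2 and 13.4 with β-TCP. For both, each β-TCP library lay above each hydrogel library. For Kif1c the highest β-TCP levels were in the libraries with the lowest mitotic kinesins.

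In β-TCP against hydrogel, the transport median was 0.23, opposite in sign to the mitotic median, and 9 of 11 genes lay above 0. Kif1b had the largest log2 fold change (0.59 ± 0.16, SE; adjusted p = 0.0530 with limma) and Kif1c followed (0.48 ± 0.15, adjusted p = 0.0729). Kif16b, an early endosome motor, was at 3.36, 3.53 and 3.26 FPKM with β-TCP and 2.73, 2.56 and 2.25 with hydrogel (0.32 ± 0.13, adjusted p = 0.125). None passed either threshold. The libraries did not overlap for 7 transport genes with β-TCP higher, against 23% of all genes. Kif3a and Kif5b did not overlap in the other direction, at 3.63 to 3.97 against 4.35 to 5.04 FPKM for Kif3a (34.5% of all genes had β-TCP lower without overlap), a motor subunit of kinesin-2 that works in intraflagellar transport.

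Median log2 fold changes of the transport class in the other comparisons were 0.04 in hydrogel against control, -0.01 in PCL against control, 0.01 in PCL against hydrogel, 0.23 in β-TCP against control and -0.26 in PCL against β-TCP. Some medians near 0 changed sign with the scaling. With median-of-ratios scaling, which also moved the median of all genes in hydrogel against control from 0.14 to 0.02, the transport median there was -0.08, and with globins left out of the total the median in PCL against hydrogel was -0.01. In β-TCP against control, Kif1b (0.48 ± 0.16, SE, adjusted p = 0.121) and Kif16b (0.39 ± 0.13, adjusted p = 0.136) were higher without overlap of libraries, as was the kinesin-2 subunit Kif3b (0.24 ± 0.12, adjusted p = 0.317), where 17.9% of all genes were.

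Kif1c ran against the mitotic genes from library to library. Its r with Mki67 was -0.894 and its rho -0.958 (permutation p = 8e-05 and 2e-05; adjusted p = 0.00012 and 6e-05). The r was -0.960 without control 3 and β-TCP 2, and -0.852 within groups. With the globin share r was -0.924 and rho -0.937 (permutation p = 4e-05 and 6e-05; adjusted p = 6.86e-05 and 8e-05), r was -0.916 without control 3 and PCL 3, and -0.927 within groups. Since FPKM are shares of a total, both relations were also computed with the globin genes left out of that total, a check chosen after seeing the data, and gave -0.930 and -0.944. With β-TCP 2 and 3 averaged they were -0.881 and -0.919. Kif5b went weakly the other way, with r = 0.622 and rho = 0.755 for Mki67 (permutation p = 0.0036 and 0.00582; adjusted p = 0.00393 and 0.00635), r = 0.555 without control 3 and β-TCP 2 and r = 0.667 within groups. With the globin genes left out of the total this r fell to 0.473. With the globin share Kif5b had r = 0.514 and rho = 0.720 (permutation p = 0.106 and 0.00998), and r = 0.389 with globins left out.

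**Figure D4:**
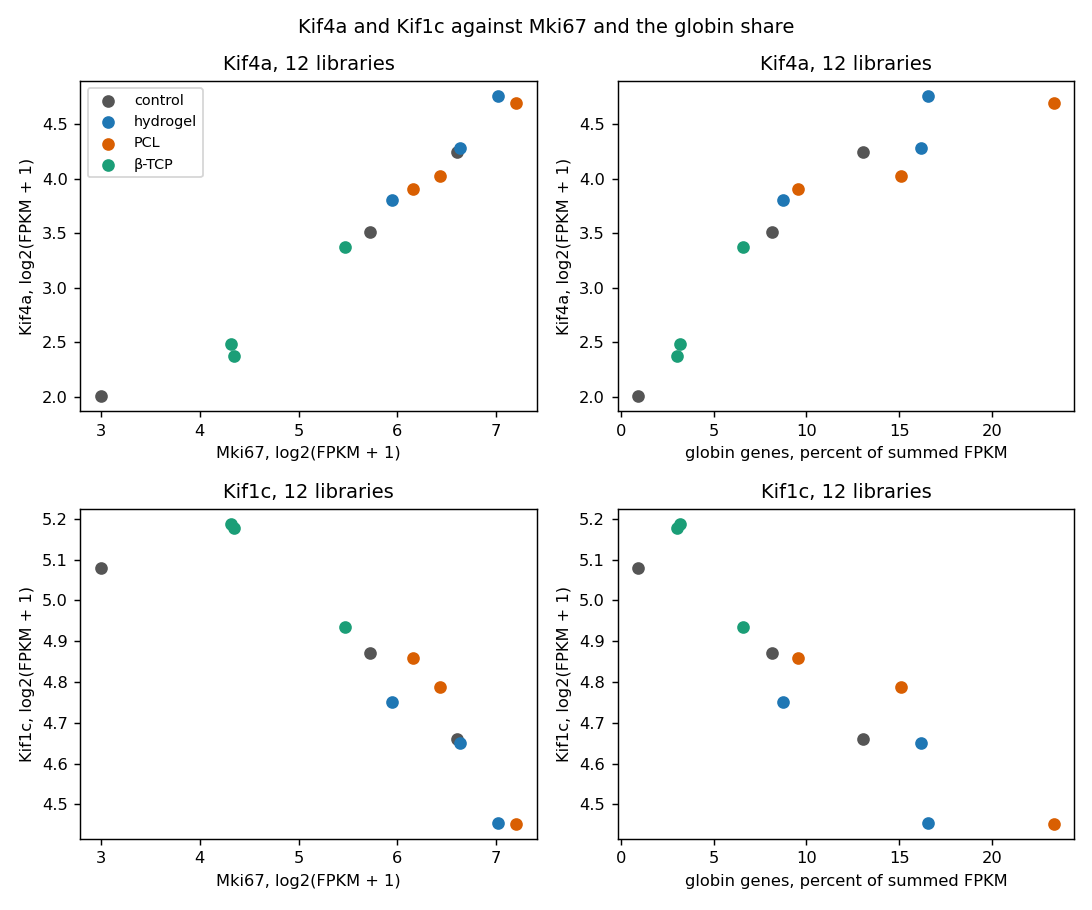
Kif4a (top) and Kif1c (bottom), as log2(FPKM + 1), against Mki67 and against the percent of summed FPKM held by globin genes, with 1 point for each of the 12 libraries, coloured by group. Kif4a goes up with both measures (r = 0.985 and 0.927) and Kif1c goes down with both (r = -0.894 and -0.924).

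Markers of osteoclasts and most markers of macrophages were higher with β-TCP than with hydrogel, as Kif1b and Kif1c were. The likeness was weaker against the other groups. Kif1b was highest in PCL 1, at 14.9 FPKM, and had -0.17 ± 0.16 (SE) in PCL against β-TCP. Kif1c was at 32.8 FPKM in control 3, above the 29.6 FPKM of β-TCP 1. The 5 osteoclast markers found summed to 9238 to 9422 FPKM with β-TCP and to 2236 to 5459 FPKM in all other libraries. Of the 4 tested, 3 were higher than with hydrogel at an adjusted p under 0.05, where 6.13% of all genes passed, while Dcstamp was listed at or near 0 in all libraries. The 5 macrophage markers summed to 779 to 990 FPKM with β-TCP and 324 to 650 elsewhere, but 1 of them, the scavenger receptor Cd163, went the other way, at 5.93 to 8.30 FPKM with β-TCP and 22.0 to 27.7 with hydrogel. Their part in the transport values was not tested. Neuron markers were nearly absent: 5 of 6 stayed under 1 FPKM in all libraries, and Tubb3 reached 2.54 FPKM.

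The remaining transport genes were low to moderate. Kif3b (mean 8.13 FPKM), Kif13b (6.0), Kif13a (5.67), Kif3a (4.30), Kif3c (4.18), Kif5a (3.84) and Kif17 (1.28) included members best known from neurons. Kif17, a kinesin-2 of dendrites and cilia, had the widest ratio of highest to lowest library of the class, 5.65. Kif5a, a neuronal kinesin-1, was at 1.33 FPKM in control 3 and 2.33 to 5.14 elsewhere. Kif3c was the opposite, with 7.59 FPKM in control 3 and 2.71 to 4.87 elsewhere. The neuronal forms Kif5c and Kif1a did not reach the level for testing, at 0.221 to 1.10 and 0.0701 to 0.411 FPKM, and each was highest in β-TCP 2.

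Among the other kinesins, Kif24 was nearest to the mitotic genes in β-TCP against hydrogel. Kif24, a kinesin-13 of the centriole that restrains cilium growth, was at 2.01, 2.91 and 0.436 FPKM in the controls, 3.34, 2.51 and 5.09 with hydrogel, 2.42, 1.95 and 2.79 with PCL, and 1.68, 0.798 and 0.714 with β-TCP. It was lower with β-TCP than with hydrogel (-1.16 ± 0.35, SE, adjusted p = 0.0680) and passed only the fold threshold. In PCL against β-TCP it passed neither (0.74 ± 0.35, adjusted p = 0.237). Kif2a, a depolymerase of spindle poles and neurites, differed in the same direction by less (-0.73 ± 0.25, adjusted p = 0.0860), with 9.72 to 10.9 FPKM under β-TCP and 15.1 to 23.8 under hydrogel. Kif21b, known from brain and leukocytes, was at 2.03 FPKM in control 3 and 5.38 to 11.8 in the other libraries.

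Kif21a, a kinesin-4 that slows microtubule growth at the cell cortex, was the kinesin most tied to the control group among those tested. It was at 1.98, 2.05 and 6.01 FPKM in the controls, 0.996, 1.21 and 0.806 with hydrogel, 0.867, 1.44 and 1.10 with PCL, and 1.51, 0.854 and 1.0 with β-TCP. Every control lay above every scaffold library, as for 5.98% of all genes against hydrogel, 7.84% against PCL and 4.97% against β-TCP. Its log2 fold change against control was -1.0 ± 0.29 (SE) with hydrogel, -0.91 ± 0.29 with PCL and -0.93 ± 0.29 with β-TCP, with adjusted p-values of 0.312, 0.185 and 0.105. Without control 3 they were -0.60, -0.51 and -0.52 (each ± 0.17, SE), with adjusted p-values of 0.477, 0.212 and 0.0694, and none passed the fold threshold. These comparisons share the control libraries. The first passed the fold threshold, where 1.48% of all genes were lower, by the narrowest margin, and the others did not. Adding 1 FPKM to each value shrinks fold changes at such low levels. As ratios of group means, control 3 included, the control group exceeded hydrogel by 3.33, PCL by 2.95 and β-TCP by 2.98 times. Control 3, where Kif21a was highest, was also the library with the highest cartilage markers, whose part was not tested.

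Kif7, a kinesin-4 at the tip of the primary cilium that acts in hedgehog signalling, ran from 2.83 FPKM in PCL 3 to 6.85 FPKM in control 3. Kif26a, which has lost motor activity, ran from 0.646 to 1.86 FPKM, again highest in control 3. Kif1bp was the steadiest gene of the 29, at 12.4 to 15.6 FPKM, a ratio of 1.26. None of these passed an unadjusted p under 0.05 in β-TCP against hydrogel.

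The genes not tested, 11 in all, were too low for it. Kif26b reached 1.18 FPKM in β-TCP 3, Kif19 0.459 and Kif9 0.411 in control 3, and Kif27 0.418 in control 2. Kif12, Kif6, Kif4b and Kif28p stayed at or under 0.145 FPKM, with 15, 12, 19 and 3 fragments over all 12 libraries. Kif2b was listed at 0 in all of them. Kif6, Kif9, Kif19 and Kif27 are known mainly from motile cilia or flagella. Of 4 ciliated cell markers, Foxj1, Dnah5 and Tekt1 were under 1 FPKM in all libraries and Rsph1 reached 1.51 FPKM.

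Partners of the mitotic kinesins moved as those kinesins did. The list held 25 spindle and cytokinesis genes, among them the chromosomal passenger complex, centralspindlin and its regulators, and cyclins. At the fold threshold 24 of 25 were lower in β-TCP than in hydrogel (median -1.46), where 5.02% of all genes were, and 20 of 25 were higher in PCL than in β-TCP (median 1.31), where 3.34% of all genes were. None passed an adjusted p in any of the 6 comparisons with limma. Cdk1, the kinase that drives entry into mitosis, had the highest mean level of the list and a log2 fold change of -1.38 ± 0.43 (SE) in β-TCP against hydrogel (adjusted p = 0.0739). Tpx2, which activates Aurora A on spindle microtubules, had -1.68 ± 0.55 (adjusted p = 0.0788). Cdk1 and Ccnb1 are also among the proliferation markers above.

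Kinesins with other names split by role as the family did. Of 8 tested kinesins and kinesin light chains or adaptors, 2 were lower in β-TCP than in hydrogel at the fold threshold, against 5.02% of all genes. These were Kifc1, a minus-end motor that focuses spindle poles (-1.67 ± 0.60, SE, adjusted p = 0.0945), and Cenpe, the kinetochore motor (-1.38 ± 0.48, adjusted p = 0.0867). The same 2 were higher in PCL than in β-TCP (1.60 ± 0.60 and 1.21 ± 0.48), against 3.34% of all genes. Klc1, a light chain that joins kinesin-1 to cargo, was at 33.0 to 41.8 FPKM in all 12 libraries and had -0.09 ± 0.10 in β-TCP against hydrogel.

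Of 18 tested cargo adaptors and dynein genes, 1 passed an adjusted p in β-TCP against hydrogel and in β-TCP against control, near the shares of all genes (6.13% and 4.78%). Arl8b, the small GTPase that recruits kinesin-1 and kinesin-3 to lysosomes, was at 73.8, 86.9 and 89.9 FPKM with β-TCP and 44.6 to 63.1 FPKM in all other libraries. It was higher with β-TCP than with hydrogel (0.77 ± 0.14, SE, adjusted p = 0.0162, limma) and than in the control group (0.67 ± 0.14, adjusted p = 0.0285). The median of the list was 0.06 and 0.04 in these comparisons. Trak2, which joins kinesin-1 to mitochondria and has the highest mean of the list, was at 102, 61.2 and 102.9 FPKM with hydrogel and 55.9, 36.5 and 36.7 with β-TCP. It passed the fold threshold as lower in β-TCP than in hydrogel (-1.02 ± 0.40, SE, adjusted p = 0.112) and as higher in PCL than in β-TCP (1.27 ± 0.40, adjusted p = 0.139).

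Of 20 intraflagellar transport and hedgehog genes, 1 passed an adjusted p in PCL against control and in β-TCP against control, where 0.277% and 4.78% of all genes did. Ihh, the ligand made by prehypertrophic chondrocytes, was at 6.84, 15.3 and 45.2 FPKM in the controls and 0.133 to 4.53 FPKM in the scaffold libraries. It was lower than control with PCL (-3.62 ± 0.61, SE, adjusted p = 0.0452, limma) and with β-TCP (-2.84 ± 0.61, adjusted p = 0.0307). At the fold threshold 3 of the 20 were lower than control in each scaffold group, against 1.48% of all genes with hydrogel, 1.27% with PCL and 1.03% with β-TCP. Ihh was highest in control 3, the library with the highest cartilage markers. The medians of the list were -0.18 and -0.14.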

How the data were processed

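Messenger RNA of 12 libraries (3 per group) was sequenced by the authors, who per the labels and methods trimmed reads with Trimmomatic, aligned them to Rnor_6.0 with HISAT2 and estimated expression with Cufflinks. The deposited table holds FPKM per gene, and 3 further value columns that match no sample listed were not used. FPKM scale each library to its own total, so a change in abundant transcripts such as globins moves all other values. Labels and methods name different kits, so library strandedness is not settled, and antisense overlap could not be separated. Nothing says which animals gave which library; p-values measure the spread between these libraries.

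Fragment numbers were recovered from FPKM steps: 93.6% of 18684 genes above 0 were whole within 0.01, and 39 of 40 kinesins. Depth limits precision for counting error only. After dropping genes below 1 FPKM in all but 2 or fewer libraries, 12633 were tested on log2(FPKM + 1) with limma 3.58.1 (R 4.3.3; trended eBayes, two-sided, 4 groups in 1 fit, Benjamini-Hochberg over all genes). The script was tested on simulated data. An alternative ran limma-voom on the recovered fragments.

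Members and lists were chosen with earlier results of these data known. Values in every library were given for Kif11, Kif20a, Kif23, Kif4a, the 3 transport genes of highest mean, and genes past a threshold; of partner lists, genes past an adjusted p, or else the 2 of highest mean. Alternatives changed the pseudocount, filter, scaling, samples and replicate block. Promoter windows came from RefSeq (GRCr8); where a gene had 2, the first was used.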

Additional observations from a re-analysis of the deposited data

How the results depend on the processing

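Mitotic medians kept their sign in all 22 settings for β-TCP against hydrogel (-1.80 to -1.28) and PCL against β-TCP (1.18 to 1.64), but not for β-TCP against control (-1.14 to 0.04) or PCL against hydrogel (-0.43 to 0.08). For single genes past the fold threshold, 427 values under alternatives kept their call, 96 kept the direction but lost it, and 0 reversed. The causes were not tested beyond the make-up of each setting.

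At an adjusted p, where 0 kinesins were called, the count became 1 with no filter on low values in PCL against control and in β-TCP against control. In β-TCP against hydrogel it became 1 with median-of-ratios scaling, 18 in a fit of the 2 groups alone and 1 with limma-voom, and in PCL against β-TCP 13 in a fit of the 2 groups. At the fold threshold, the 2 calls of hydrogel against control became 1 with a mean of at least 5 FPKM, median-of-ratios scaling, globins left out, the 2 groups alone and the replicate block. PCL against control rose from 0 to 1 with a pseudocount of 0.1 or limma-voom, and β-TCP against control from 0 to 1 with a pseudocount of 0.1, globins left out or limma-voom. In β-TCP against hydrogel the 12 calls became 8 with β-TCP 2 and 3 averaged, and in PCL against β-TCP the 11 became 1.

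Leaving out 1 library at a time gave, at an adjusted p, 0 to 0 calls in hydrogel against control, PCL against control and PCL against hydrogel, 0 to 2 in β-TCP against control, 0 to 16 in β-TCP against hydrogel and 0 to 10 in PCL against β-TCP. At the fold threshold the ranges were 0 to 13, 0 to 12, 0 to 9, 0 to 0, 6 to 12 and 0 to 11 for hydrogel, PCL and β-TCP against control, PCL and β-TCP against hydrogel, and PCL against β-TCP.

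The replicate numbers showed no steady pairing of the samples: deviations of same-numbered libraries correlated at -0.612 to 0.469, above 0.1 in 4 of 18 pairs. Libraries with different numbers also reached 0.593 (control 2 and hydrogel 3). This check therefore cannot tell whether a number marks a shared batch. With the replicate block 0 kinesins passed an adjusted p in any comparison, and the fold threshold called 11 in β-TCP against hydrogel and 5 in PCL against β-TCP. Depth limits what can be said of the 11 genes not tested.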
